A study of Mus musculus with 2 samples.

Results

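The secreted frizzled-related proteins are 5 genes in the mouse, Sfrp1, Sfrp2, Sfrp4, Sfrp5 and Frzb, of 22811 genes compared between 2 segments of the aorta. In an RNA pool from the atherosclerosis-prone aortic arch, set against a pool from the resistant thoracic aorta, they did not move together: Sfrp4 was 5.13-fold higher in the thoracic pool, Frzb was 2.04-fold and Sfrp1 1.70-fold higher in the arch pool, and Sfrp2 and Sfrp5 were near equal. The genes were found by name among the gene probes of both arrays, and each had 1 probe. The family was chosen by name with its measured ratios of arch over thoracic in view, so these ratios are a description and support nothing by themselves.

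Both pools came from the same 6 apoE-/- mice, 3 males and 3 females, aged 16 weeks, and were compared on 2 two-colour microarrays. The arch pool came from the root and arch of the aorta together with the adjoining 2 mm of its thoracic stretch. The thoracic pool came from the following 6 mm. Vessels had been perfused with Triton X-100, a detergent meant to strip the endothelium, and equal volumes of RNA from each mouse were mixed. All mice lacked apolipoprotein E, a ligand for lipoprotein clearance whose loss raises plasma cholesterol in mice, and no wild-type aorta was in the series. The pool removes the spread between mice, and whether fewer cells of a type or less RNA per cell lies behind a difference cannot be told apart in bulk tissue. On array 1 the arch pool was labelled with Cy3 and the thoracic pool with Cy5, and on array 2 the dyes were exchanged. Both arrays carried the same 2 pools and count as 1 replicate, so no p-value could be computed, and each SD below is between arrays (n = 2) and technical.

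Secreted frizzled-related proteins carry a cysteine-rich domain like that of the Frizzled receptors, joined to a netrin-like domain. They bind Wnt proteins outside the cell and are best known for limiting Wnt signalling, although some of them can also carry Wnts or act on other targets. By sequence, Sfrp1, Sfrp2 and Sfrp5 form one branch of the family, and Frzb, also called Sfrp3, groups with Sfrp4. In adult vessels and the heart, members of the family are linked to matrix turnover, repair and the growth of smooth muscle and fibroblasts.

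Gene probes had median signals of 132 to 142 per pool and array, against means of 77.0 to 97.1 on negative control spots. By the scanner software's flags, all 5 genes were well above background in both pools on both arrays, and none was saturated. Sfrp5 was still only 1.46 to 1.97 times the mean negative control. A gene was taken as higher in one pool when the mean difference was 2-fold or more (a log2 ratio of arch over thoracic of 1 or above, or -1 or below) and each array alone gave 1.5-fold or more the same way. This size rule was passed by 108 genes (0.473%) with more signal in the arch pool and by 33 (0.145%) with more in the thoracic pool. The median log2 ratio of all genes was -0.01, and their median SD between arrays was 0.06. Of the 5 family genes, Frzb passed towards the arch, Sfrp4 towards the thoracic aorta, and 3 passed in neither direction; as the family was chosen on this contrast, nothing is read from that share. Apoe, the deleted gene, had signals of 419 and 478 in the arch pool and 414 and 391 in the thoracic pool, with a log2 ratio of 0.13 ± 0.14. Where its probe lies relative to the deleted part was not examined here.

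Sfrp4 belongs to the branch of the family with Frzb and is known as a Wnt antagonist of bone and connective tissue. Its probe gave mean signals of 3012 on array 1 and 4527 on array 2 in the arch pool, and of 22021 and 18884 in the thoracic pool. The pools did not overlap, and every thoracic signal was above every arch signal with either dye. The log2 ratios were -2.31 on array 1 and -2.40 on array 2, with a mean of -2.36 ± 0.06 (SD, n = 2 arrays). This was the eighth most thoracic-biased value of the 22811 genes compared (rank 8). Sfrp4 was far above background in both pools, at 31.8 and 58.3 times the mean negative control in the arch pool, and 286 and 194 times it in the thoracic pool.

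Frzb, the founding Wnt antagonist of the family and one first found in cartilage, ran the other way. Mean signals were 429.8 and 495 in the arch pool on array 1 and array 2, and 236 on each array in the thoracic pool. The arch signals lay above both thoracic signals. The log2 ratios were 1.11 and 0.94, with a mean of 1.03 ± 0.12, and the gene ranked 100 from the most arch-biased of all genes compared. Its signals were 4.53 and 6.38 times the mean negative control in the arch pool and 3.07 and 2.43 times in the thoracic pool. Its value sat just inside the size rule: on array 2 alone it was 0.94 and did not pass.

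**Figure D1:**
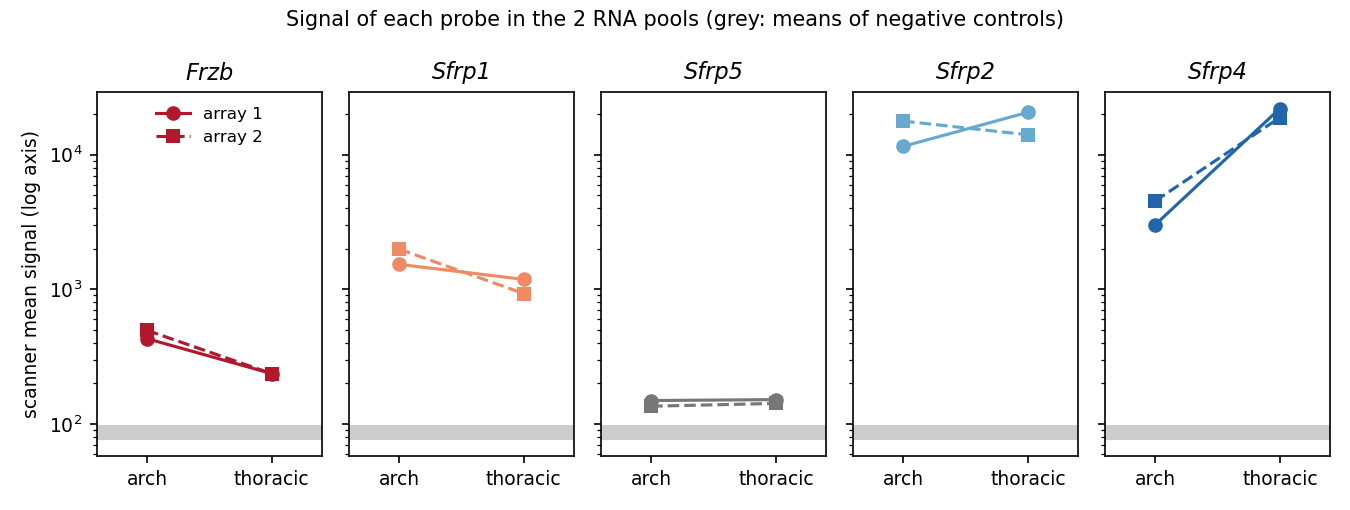
Mean signal of each member's probe on a log axis, in scanner units, for the arch pool on the left and the thoracic pool on the right of each panel; circles and solid lines are array 1, squares and dashed lines array 2, and the grey band spans the means of the negative controls. Sfrp4 shows separate groups, with 3012 and 4527 in the arch pool against 22021 and 18884 in the thoracic pool, while the Sfrp5 points lie together, between 135 and 151.

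Sfrp1, a member of the other branch and a Wnt antagonist expressed in the heart and vessels, was just outside the rule. It had mean signals of 1532 and 1989 in the arch pool, against 1184 and 928 in the thoracic pool. Both arch signals were above both thoracic signals. Its log2 ratios of 0.75 and 0.78 averaged 0.76 ± 0.02, a 1.70-fold difference. The arrays were close (1.68-fold and 1.72-fold), so Sfrp1 was past 1.5-fold on each array, as were 274 genes (1.2%) in the arch direction and 87 (0.381%) in the thoracic direction.

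Sfrp2, a fibroblast product that in mice has been linked to procollagen processing, was near equal in the pools. It had mean signals of 11522.5 and 17768 in the arch pool and 20631 and 14054 in the thoracic pool. The raw signals crossed with the dyes, since the pool in Cy5 was the brighter on each array. After normalization within the arrays the levels were 14324 and 15852 in the arch pool, against 16529 and 15689 in the thoracic pool, and the log2 ratios were -0.21 and 0.01. The mean of -0.10 ± 0.16 was smaller than its SD.

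Sfrp5, known in mice as a secreted product of fat tissue, lay close to background. Mean signals were 149 and 135 in the arch pool and 151 and 142 in the thoracic pool. These were 1.57 and 1.74 times the mean negative control in the arch pool, and 1.97 and 1.46 times in the thoracic pool. The log2 ratio was -0.04 on each array. Dim signals are pulled towards 0 by the background offset, so a difference would be hard to see for this gene.

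**Figure D2:**
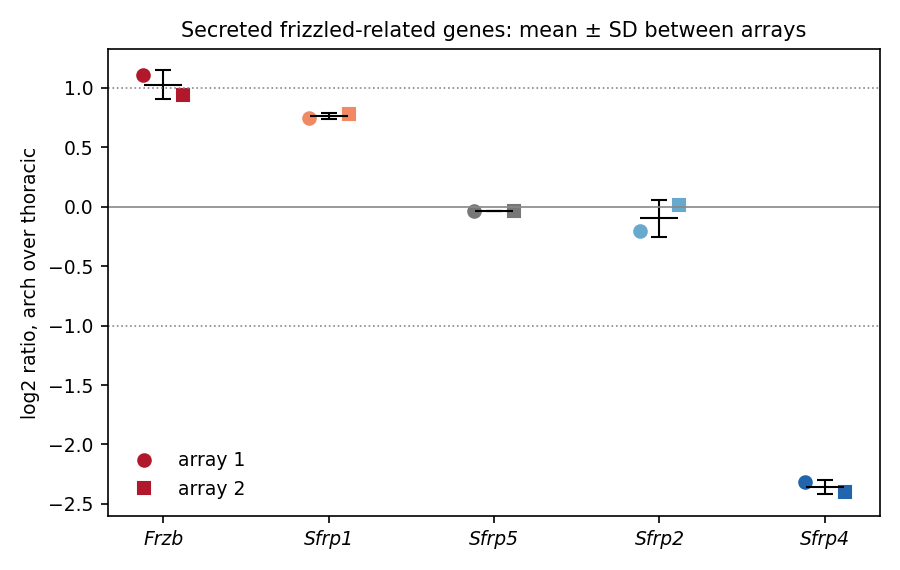
Log2 ratio of arch over thoracic for the 5 genes, with a circle for array 1, a square for array 2, and the mean with the SD between arrays; dotted lines mark -1 and 1. Frzb (1.03) and Sfrp1 (0.76) lie above 0, Sfrp5 (-0.04) and Sfrp2 (-0.10) near it, and Sfrp4 at -2.36.

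Placed in order of their ratios, the genes ran Frzb, Sfrp1, Sfrp5, Sfrp2 and Sfrp4. Frzb and Sfrp1 were 0.26 apart on the log2 scale, and the array values of the pair did not overlap. Sfrp1 and Sfrp5 were 0.80 apart and also separate. Sfrp5 and Sfrp2 were 0.06 apart with overlapping array values, so their order is not set. Sfrp2 and Sfrp4 were 2.26 apart. The span from Frzb to Sfrp4 was 3.39, and the family median was -0.04. In these pools the ratios did not follow the branches: Frzb and Sfrp4, which belong together by sequence, stood at the opposite ends. Sfrp1 stood away from Sfrp2 and from Sfrp5, though Sfrp5 lay close to background, where a difference would be hard to see.

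**Figure D3:**
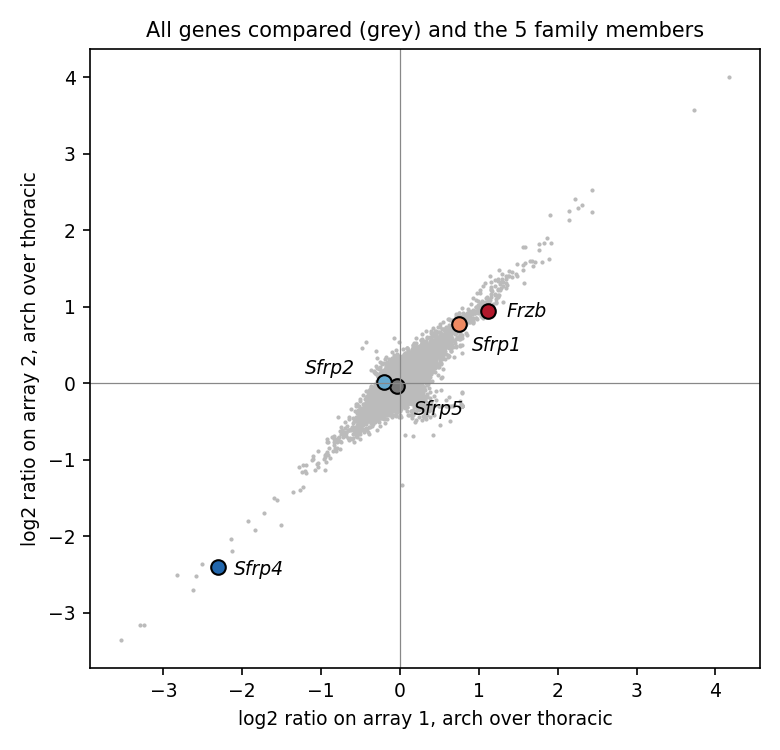
Log2 ratio of arch over thoracic on array 1 against array 2 for the 22811 genes compared, with the 5 family genes marked. Sfrp4 lies at -2.31 and -2.40, far from the mass of genes, and Sfrp2 and Sfrp5 lie within it.

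The scanner software's own ratios, from the deposited tables with their error estimates on the log2 scale, ran the same way. Frzb had 1.38 (error 0.22) on array 1 and 1.15 (error 0.20) on array 2. Sfrp1 had 0.78 and 0.80, each with an error of 0.17, and Sfrp4 had -2.34 and -2.43, each with an error of 0.24. Sfrp2 was at -0.21 and -0.00 with an error of 0.16, and Sfrp5 at -0.02 (error 0.39) and -0.14 (error 0.34). The estimates are the authors' deposited values and cover 1 array each.

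RefSeq holds a promoter entry (GRCm38.p6, 250 bases before to 50 after the start) for 3 of the 5 genes in the table used, Frzb, Sfrp2 and Sfrp5. The Frzb and Sfrp2 promoters are shown because these genes differed in their ratios, Frzb being higher in the arch pool and Sfrp2 near equal. Capitals mark matches on either strand to the TCF/LEF core CTTTG and the GC box GGGCGG.
Frzb (chr2:80447347-80447646, minus strand): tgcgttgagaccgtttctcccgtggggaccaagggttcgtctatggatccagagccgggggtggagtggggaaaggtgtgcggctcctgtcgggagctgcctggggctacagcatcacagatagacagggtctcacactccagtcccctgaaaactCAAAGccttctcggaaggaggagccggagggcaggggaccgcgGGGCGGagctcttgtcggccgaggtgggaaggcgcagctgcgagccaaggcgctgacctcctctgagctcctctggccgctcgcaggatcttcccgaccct
Sfrp2 (chr3:83766071-83766370, plus strand): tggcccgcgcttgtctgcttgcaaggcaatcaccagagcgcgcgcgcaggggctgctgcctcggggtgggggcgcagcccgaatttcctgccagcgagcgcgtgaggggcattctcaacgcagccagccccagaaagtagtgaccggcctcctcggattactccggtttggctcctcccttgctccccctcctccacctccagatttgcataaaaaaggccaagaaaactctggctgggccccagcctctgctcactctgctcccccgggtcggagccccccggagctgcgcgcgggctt
The Frzb promoter was 64.67% G or C with 20 CpG and held 1 TCF/LEF core and 1 GC box. The Sfrp2 promoter was 66.00% G or C with 22 CpG and held neither, nor a CCAAT box or TATAAA. Sfrp5 (chr19:42202203-42202502, minus strand) was 61.33% G or C with 15 CpG, 2 GC boxes and 1 CCAAT box. Of 32851 promoters of this length, 53.9% held the TCF/LEF core, 35.7% the GC box, 37.4% a CCAAT box and 13.6% TATAAA, with median values of 7 CpG and 52.67% G or C. No measurement in the series bears on these promoters, and a match is a match of letters alone.

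The partners of the family were listed by role. Over the 7 lists of Wnt ligands, receptors, co-receptors, other antagonists, R-spondins with secretion factors, transducers and targets, 95 of 104 genes could be compared. Of these, 1 passed towards the arch and 0 towards the thoracic aorta, against 0.473% and 0.145% of all genes, and 90 were under 1.5-fold. Their median was 0.02, with 60.0% above 0, beside 47.3% of all genes. Among the ligands, 0 of 17 passed, with a median of -0.00; Wnt2 was at -0.69 ± 0.00, Wnt5a, a ligand of non-canonical signalling, at 0.30 ± 0.07, and Wnt7b at -0.18 ± 0.04. None of the 10 Frizzled receptors passed (median 0.02). Fzd2 had 0.44 ± 0.10 (0.02 at another probe), Fzd8 -0.17 ± 0.07 (-0.04 at another probe) and Fzd7 0.11 ± 0.03 (0.28 at another probe). Some of these genes were dim. Wnt5a had signals of 134 and 130 in the arch pool and 110 and 114 in the thoracic pool, and Fzd8 113 and 96 against 112 and 118. Rspo3 (95.6 to 130) and Celsr1 (100 to 142), named below, were dim too. As with Sfrp5, a difference would be hard to see there, so few passing genes do not show equal levels.

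The 9 co-receptors had a median of 0.09 and none passed. Gpc3, a cell-surface glypican, was at -0.68 ± 0.14, Gpc4 at 0.34 ± 0.01 (0.14 at another probe) and Ptk7 at 0.28 ± 0.02. Of the 14 other antagonists compared, Igfbp4 alone passed. Igfbp4, an IGF-binding protein that can also bind Wnt co-receptors, had mean signals of 3356 and 4129 in the arch pool and 2057 and 1498 in the thoracic pool. Its log2 ratio was 1.14 ± 0.02, or 2.21-fold, and a second probe gave 1.22. Wif1, which binds Wnts directly, was at 0.57 ± 0.02, and Dkk3 at 0.47 ± 0.11. The R-spondin and secretion list (8 compared, none passed) had a median of 0.03, with Rspo1, an enhancer of Wnt signalling, at 0.82 ± 0.03, its receptor gene Lgr4 at -0.53 ± 0.01 (-0.17 at another probe) and Rspo3 at 0.31 ± 0.04 (-0.06 at another probe).

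Transducers and targets showed no gene past the rule either. The 25 transducers had a median of 0.11; Celsr1 was at 0.51 ± 0.09, Daam1 at 0.38 ± 0.06 (0.32 and -0.00 at its other probes) and Tcf7l2 at -0.34 ± 0.02, with values of -0.13, -0.13 and 0.06 at its other probes. The 15 canonical target genes had a median of 0.04. Ccn4, a matricellular Wnt target, was at 0.62 ± 0.03, Ccn5 at 0.50 ± 0.01 and Nkd1 at 0.24 ± 0.12 (0.05 at another probe), while Axin2, the usual feedback target, was at 0.04.

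**Figure D4:**
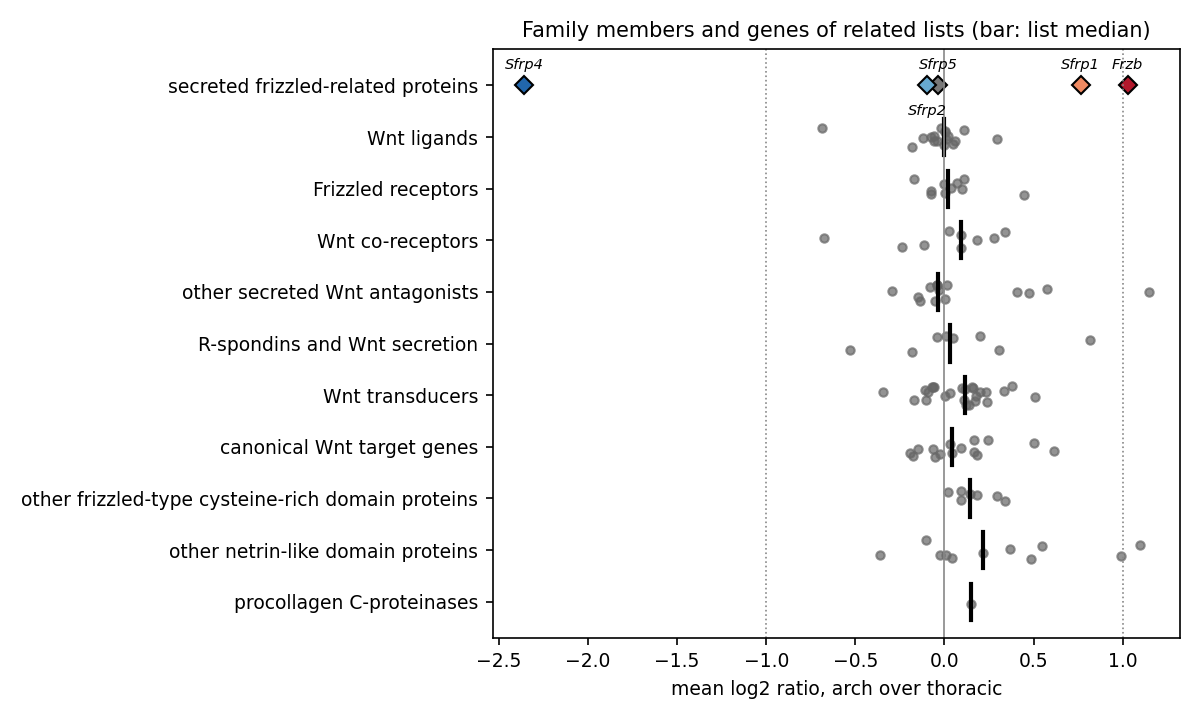
Log2 ratio of arch over thoracic for the family genes (top row) and, below, a grey point per gene of each Wnt and shared-domain list, with a bar at the list median and dotted lines at -1 and 1. Igfbp4 is the only one of the 95 Wnt list genes past the size rule, and the medians of the 7 Wnt lists lie between -0.03 and 0.11.

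Proteins that share a domain with the family were also listed. The 7 other genes with a frizzled-type domain had a median of 0.15 and none passed; Smo was at 0.34 ± 0.02, Cpz at 0.29 ± 0.18 and Ror1 at 0.18 ± 0.09. Their other probes were nearer to 0, with 0.03 and 0.04 for Smo (the second not well above background), 0.06 for Cpz and 0.03 for Ror1 (not well above background). Of 11 genes with a netrin-like domain, 1 passed in the arch direction: C3, a complement protein, 2.14-fold higher in the arch pool, though a second probe was at 0.23. C3 did not pass under median centring (0.89) or with the median over its probes (0.66). Timp3, a matrix metalloproteinase inhibitor, was at 0.99 ± 0.00 and C4b at 0.55 ± 0.14, and the list median was 0.21. Bmp1, the procollagen C-proteinase that some family members bind, was at 0.15 ± 0.06 (0.03 at another probe).

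Genes nearest to Sfrp4 over the 2 arrays' ratios, by Euclidean distance, were Mup4 (distance 0.20, log2 ratio -2.44), C1qtnf3 (0.27, -2.17), Pax1 (0.40, -2.09), Esm1 (0.68, -1.88) and Hoxc6 (0.71, -1.87). C1qtnf3 had -1.45 at another probe, and Pax1 had -0.02 at another that was not well above background. Those nearest to Frzb were Ptprf (0.05, 1.06), Bok (0.06, 0.99), Cox6a2 (0.07, 1.04), Csrp3 (0.07, 1.00) and Clstn2 (0.08, 1.00). In the thoracic pool Csrp3 had signals of 88.3 and 103.9 and Clstn2 of 88.4 and 106.5. Both lay near the negative control means of 77.0 and 97.1. Under other ways of processing, Csrp3 ran from 0.77 to 2.49, so its likeness to Frzb depends on the processing. Ptprf had 1.02 and 0.17 at its other probes, and Clstn2 had 0.05 at another probe and -0.01 at one that was not well above background. Likeness over 1 pair of pools is a statement of size alone.

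Marker genes of the cell types that the segments could hold also differed. By the rule, no marker of the 10 lists was higher in the thoracic pool. Only 0.145% of all genes passed that way, so nothing is read from this count. Saturated probes are left out of the medians and summed levels that follow. Of 9 smooth muscle markers none passed, and the median was 0.00 over the 7 that were not saturated (Acta2 and Tagln were). With these 2 the median was 0.12, and it turned to -0.05 under median centring and without array 1. At other probes, Acta2 had 0.28, 0.15, -0.30 and -0.40, and Tagln had -0.05.

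Among the markers of other cell types, 7 of 8 for mesothelium were higher in the arch pool, with a median of 1.37 and summed levels of 6549 and 6395 in the arch pool against 2405 and 2381 in the thoracic pool. Of 9 cartilage markers compared, 4 passed towards the arch (median 0.71), among them Cytl1 (2.48), Epyc (2.32) and Prg4 (1.19), while Col2a1 was at 0.29, Acan at 0.14, Col9a1 at 0.02 and Chad at -0.01. Their summed level was 24910 and 27614 in the arch pool, against 18428 and 18964 in the thoracic pool. Of 9 macrophage markers 4 passed towards the arch, with Cd5l at 4.09, Gpnmb at 2.34 and Clec7a at 1.52, while Csf1r was at 0.07, Adgre1 at -0.06 and Cd14 at -0.14. Their median was 0.92 without Lyz2, which was saturated, and their summed level was 20468 and 20539 in the arch pool, against 6874 and 6929 in the thoracic pool. Of 8 heart muscle markers 3 passed towards the arch (median 0.25), Myl7 at 3.65, Tnnt2 at 2.32 and Tnni3 at 1.41, while Actc1 was at 0.17, Nppa at 0.04, Myh6 at -0.05 and Ryr2 at -0.14. Their summed level was 26720 and 29821 in the arch pool, against 22412 and 20805 in the thoracic pool.

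Endothelium markers had 1 of 8 past the rule (Kdr, 1.24) and a median of 0.63, although the vessels had been perfused to remove these cells, with summed levels of 2198 and 2247 in the arch pool against 1305 and 1295 in the thoracic pool. Brown fat markers had 1 of 7 (Dio2, 1.12) and a median of 0.55, with 19092 and 18530 in the arch pool against 11965 and 11996 in the thoracic pool. Prdm16 was at -0.07 and Elovl3 at -0.32. Fibroblast markers had 1 of 10, Lum at 1.05 ± 0.02, which did not pass under median centring (0.84). Without Dcn and Gsn, which were saturated, the fibroblast median was 0.30 and the summed level 124420 and 130258 in the arch pool, against 99123 and 100282 in the thoracic pool. None of the 7 white adipocyte markers passed. Without Fabp4, which was saturated, their median was -0.07. Their summed level was lower in the arch pool, at 27673 and 26219, against 30774 and 32281 in the thoracic pool. Retn was at -0.47 and Cfd at -0.35, while 4 of the 7 were above 0, among them Pck1 at 0.37 and Plin1 at 0.11. The 6 Schwann cell markers had none past the rule and a median of 0.08, with 12992 and 13091 in the arch pool against 12043 and 12239 in the thoracic pool. Other probes gave 2.52 for Epyc, 1.17 and 1.03 on the arrays for Tnni3 and -0.54 for Retn, and, where not well above background, 0.25 for Gpnmb and 0.07 for Tnnt2. The part of these cells in the ratios of the family was not tested.

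**Figure D5:**
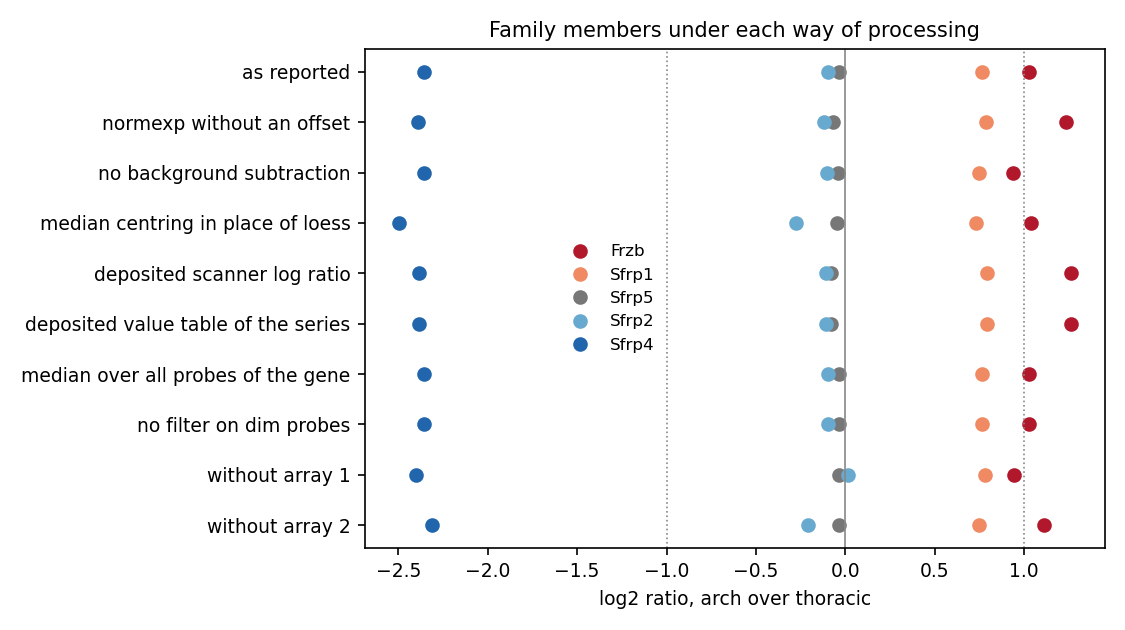
Log2 ratio of arch over thoracic for each family gene under the main processing and its alternatives, a row per setting, with dotted lines at -1 and 1. Sfrp4 stays between -2.50 and -2.31, Sfrp1 between 0.73 and 0.79, and Frzb between 0.94 and 1.26, on both sides of the limit of 1.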

How the data were processed

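Two-colour Agilent mouse arrays compared 1 arch pool with 1 thoracic pool, with the dyes exchanged on the second array. The deposited scanner tables give mean signals and local background as intensity values, written by Feature Extraction, Agilent's scanner software, whose version is 8.1.1.1 in the file headers and 9.1.1.1 in the submitters' processing notes. The deposited log10 ratios are those of red over green processed signal, per the file headers, and the deposited table of the series, also log10, is turned to arch over thoracic; its correlations with the turned scanner ratios were 1 and 0.9998, with column medians of 0. The deposited flags for background and saturation and the deposited error of each log ratio were read as score values. With limma 3.58.1 in R 4.3.3, signals were corrected by normexp (offset 50) against the local background and normalized by loess within each array, control spots at weight 0. Outlier spots (8 and 5) and control spots were left out, spots of a probe were averaged and array 1 was turned. A signal well above background in 1 pool or both, on both arrays, was found for 32176 of 41174 gene probes, and the brightest per gene left 22811 genes. Names came from a RefSeq table: 21445 probes matched by accession, 5431 by current symbol and 4636 by synonym, and 9662 kept the file's name. No test was possible with 1 pool per segment; the steps were tested on simulated arrays, and 9 alternatives in background correction, normalization, source of the ratios, probes, filter and arrays were run. Named genes are the members, those past the rule and the 3 largest per pathway list, the 3 largest per marker list, 5 nearest genes per passing member and Apoe; Axin2 was added after its value was seen. The members and lists were chosen with earlier results of these data known. The number of arrays limits the precision, and no source used here names the build behind the probes' annotation.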

Additional observations from a re-analysis of the deposited data

How the results depend on the processing

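No paired analysis was possible because both arrays carry the same 2 pools. The direction of Sfrp4, Frzb and Sfrp1 held under all 9 alternatives (no offset, no background subtraction, median centring, scanner ratios, the series' table, median over probes, no filter on dim probes, and each array alone), and none of the 5 genes reversed a passed call. Sfrp4 passed in 9 of 9 and Frzb in 7 of 9. As each member has 1 probe, well above background, the median over probes and the filter on dim probes could not change its value. The scanner ratios and the series' table hold nearly the same numbers, so the 9 are not independent checks. Frzb was 0.94 with no background subtraction and 0.94 without array 1. Without an offset Frzb was 1.24 and Sfrp5 -0.066, and with the deposited scanner ratios or the series' table Frzb was 1.26, Sfrp1 0.79 and Sfrp5 -0.080. Sfrp2 ran from -0.28 to 0.01. Under median centring Sfrp1 was 0.73, Sfrp2 -0.28, Sfrp4 -2.50 and Sfrp5 -0.046, and Sfrp5 was -0.039 with no background subtraction. Counts were 196 genes higher in the arch and 66 in the thoracic pool without an offset, and 232 and 77 with the deposited ratios of either source. C3 lost the rule under median centring (0.89) and over the median of its probes (0.66), and Lum under median centring (0.84). Of the genes nearest to Frzb, Csrp3 passed in 7 of 9 (lowest 0.77), Ptprf in 8 of 9 (lowest 0.98) and Cox6a2 in 8 of 9 (lowest 0.93). The smooth muscle median was -0.05 under median centring and without array 1. These alternatives were applied to the other named genes and the lists as an addition chosen after seeing the data. Over 69 other named genes, 434 of 621 values stayed within 1 SD. Over the 20 lists 105 of 180 medians did, with 75 moving further, and 0 passed calls reversed. With 2 arrays, leaving out 1 cannot move a gene's mean past its SD. Without the filter on dim probes the counts stayed at 108 and 33, and a median over probes cannot move a gene with 1 probe. Part of the 434 was therefore set in advance, and the share does not measure robustness. Left without array 1 or array 2, the counts were 103 and 114 in the arch pool and 33 and 33 in the thoracic pool. Dim genes such as Sfrp5 are limited by signal over background; the cause of these changes was not tested.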
